A study of Mus musculus with 2 samples.

Results

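Sfmbt2 is an imprinted gene of mouse chromosome 2 that encodes a Polycomb-group protein, and one of its introns holds a long array of microRNA genes. The members described here are all rows of the 2 count tables whose identifier belongs to a GENCODE M21 microRNA gene within the span of Sfmbt2 and on its strand. This rule, which uses position only, gave 107 of the 1973 microRNA genes in the tables. By name they fall into 20 Mir466, 20 Mir669, 14 Mir467 and 5 Mir297 genes, and 48 more carry only a predicted-gene symbol beginning with Gm. The libraries hold small RNA under 30 bases from whole lung of embryonic day 16.5 B6NCrl mice, with lungs of male and female embryos pooled. There is a single group of 2 biological replicates and no treatment or mutation. Replicate 2 pools 41 embryos, while the size of the other pool is not stated in the labels used.

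MicroRNAs are cut from hairpin-shaped precursors into small RNAs that guide repression of messenger RNAs, and bases 2 to 8 of the mature strand, the seed, do most of the target pairing. The array in Sfmbt2 is a rodent-specific tandem repeat and is best known from trophoblast and placenta, where the host gene is expressed from the paternal allele. Its families have hairpins rich in alternating purines and pyrimidines, close in letters to TG and CA repeats. A mature microRNA from such a repeat can therefore occur at several places in the genome. That matters for counting, since the tables keep reads that match several loci on a line of their own.

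Mature sequences of the named families were taken from RefSeq (GRCm38.p6, the same build as mm10) for relatives that lie outside Sfmbt2. The 7 shown are those that differ by a single base from a stretch in at least 1 member hairpin, and they display the repeated letters that the families share. Capitals mark the seed.
miR-467h, from chr9:115381898-115381919 on the plus strand: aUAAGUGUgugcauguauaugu
miR-467g, from chr5:34732872-34732892 on the minus strand: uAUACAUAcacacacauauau
miR-467f, from chr11:69635419-69635439 on the minus strand: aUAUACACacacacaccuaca
miR-669n, from chr3:115979905-115979924 on the plus strand: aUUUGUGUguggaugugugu
miR-466i-3p, from chr13:17747552-17747573 on the plus strand: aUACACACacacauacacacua
miR-466j, from chr10:60960802-60960824 on the plus strand: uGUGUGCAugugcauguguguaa
miR-466k, from chr3:85467396-85467418 on the plus strand: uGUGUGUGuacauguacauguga

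By the choice of these 7 sequences, the fewest mismatches between each of them and any member hairpin numbered 1. For miR-467h that closest stretch lay in Mir467c and Mir467e, for miR-467g in Mir669l and Mir467e, and for miR-669n in Mir669c, all of which had counts in both libraries. For miR-467f it lay in 12 members, among them Mir467a-1 to Mir467a-8, and for miR-466i-3p in Mir466f-2. For miR-466j it lay in 10 members, among them Mir466m and Mir297a-2, and for miR-466k in 8, among them Mir466o and Mir466b-3. The seed of miR-467g, AUACAUA, occurred in 66 of the 107 member hairpins (61.7%) and in 65 of 2083 other mouse microRNA hairpins (3.12%). The seed of miR-466i-3p, UACACAC, occurred in 51 member hairpins (47.7%) and in 120 others (5.76%). GUGUGCA of miR-466j was in 52 member hairpins (48.6%) and in 44 others (2.11%), and GUGUGUG of miR-466k in 38 (35.5%) and in 160 others (7.68%). UAUACAC of miR-467f was in 27 (25.2%) and in 86 others (4.13%), and UUUGUGU of miR-669n in 10 (9.35%) and in 47 others (2.26%). By contrast, UAAGUGU of miR-467h was in 1 member hairpin (0.935%) and in 13 others (0.624%). Seeds were searched anywhere in the hairpin, on its own strand only. The sequences had been chosen for closeness to member hairpins, and members with identical hairpins were each counted. The seed shares are thus descriptive and were not tested. A match describes the letters and is no evidence of a mature strand, and some seeds overlap in the repeats.

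The array starts at 10465287 and ends at 10518279 on chromosome 2, plus strand (mm10), a stretch of 53.0 kb. All 107 members lie in a single intron of 62.5 kb (10461473 to 10523944), between exons 10 and 11 of one annotated transcript and exons 11 and 12 of another, and 0 of them overlap an annotated exon. The host gene spans 10370510 to 10595253. Neighbouring members start a median of 304 bases apart. A further 12 annotated microRNA genes of the same intron, 9 of them named Mir669a, have no row under their identifiers in the tables and were not analysed here.

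The depth was 6376715 counts over microRNA genes in replicate 1 and 4123748 in replicate 2. Levels are given as CPM, the count scaled to a total of 1000000 over microRNA genes, and as mean ± SD (n = 2). A read covers a whole small RNA and not a fragment of a long transcript, so CPM was not divided by gene length, and member hairpins were 73 to 127 bases long. In reads counted to a gene, one with 0 counts may still lie as high as 0.470 CPM in replicate 1 and 0.727 CPM in replicate 2 (3 counts). Intervals and limits cover counting error only, since amplified copies of 1 molecule are not told apart in these reads. Markers of lung cells were abundant, with Mir126a of endothelium at 83199 CPM ± 5768, Mir143 of mesenchyme at 71247 ± 1447, Mir200c of epithelium at 10279 ± 499 and Mir449a of multiciliated cells at 16513 ± 2732. Mir122 of liver was at 111 and 601 CPM and Mir206 of skeletal muscle at 294 and 643. Mir124a-1 of neurons had 0 counts in both libraries, but its hairpin shares a run of 22 bases with 2 other microRNA genes, so this 0 does not show that the neuronal microRNA was absent. In a bulk sample, fewer cells with a microRNA and less of it per cell cannot be told apart.

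Most of the array had no counted reads, and a few of its genes had many. With detection set at 10 or more counts in each library, 10 of 107 members (9.35%) were detected, against 17.6% of all microRNA genes. A count of 0 in both libraries was found for 81 members (75.7%), against 64.1% of all microRNA genes. The remaining 16 members had between 1 and 7 counts in at least 1 library. Together the 107 members held 20438 counts in replicate 1 and 13245 in replicate 2. These are 0.321% of gene counts in replicate 1 (exact Clopper-Pearson 95% interval 0.316 to 0.325%) and 0.321% in replicate 2 (0.316 to 0.327%). The 97 members below the minimum contributed 27 and 29 of these counts, which is 0.132% and 0.219% of the array.

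**Figure D1:**
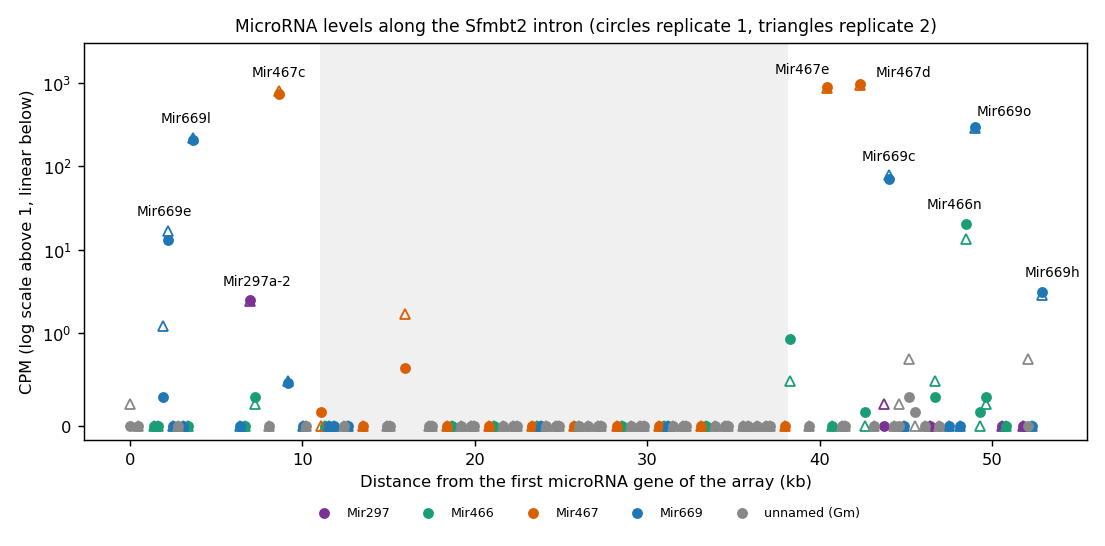
CPM of each of the 107 microRNA genes (vertical axis, logarithmic above 1 and linear below) against the distance of its start from the first gene of the array in kb (horizontal axis), coloured by family; circles are replicate 1 and open triangles replicate 2, and the grey band runs from Mir467a-1 to Mir467a-10. The 10 labelled genes lie on both sides of the band, 4 before and 6 after it, and the highest value within the band is that of Mir467b, with 4 and 7 counts.

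The Mir467 family held most of the counts of the array. It had 80.9% of them in replicate 1 and 80.5% in replicate 2, and this rested on 3 genes. Mir467d (ENSMUSG00000077021.2, 10507630 to 10507714) had 6150 and 3850 counts, or 964 and 934 CPM. Mir467e (ENSMUSG00000076948.2, 10505721 to 10505807) had 5708 and 3569 counts, or 895 and 865 CPM. These neighbours lie at the 3' end of the array's repeated block, and start 42.3 and 40.4 kb from the first gene of the array. Their levels differed by 1.08-fold in each library.

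Mir467c (ENSMUSG00000077049.2, 10473931 to 10474027) lies at the other end of the repeated block and had 4664 and 3235 counts, or 731 and 784 CPM. In mean level Mir467d (949 CPM ± 21.8) ranked 103 among all 1973 genes, Mir467e (880 ± 21.0) ranked 110 and Mir467c (758 ± 37.5) ranked 111. Reads that match several loci are not in these levels, so ranks and order hold for counted reads only. The lowest library value of each lay above the highest of the next, so the order of the 3 was the same in both libraries. The other 11 genes of the family stayed below the minimum. Mir467b, the highest of them and the member closest below the minimum, had 4 and 7 counts (0.627 and 1.70 CPM). The 10 genes named Mir467a had 1 count in all in replicate 1, at Mir467a-1, and 0 in replicate 2.

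The Mir669 family, of which miR-669a has been studied as a repressor of skeletal muscle differentiation in heart progenitors, was next with 18.3% and 18.9% of the array's counts. It had 5 detected members of 20. Mir669o (ENSMUSG00000077086.1, 10514300 to 10514395) had 1884 and 1195 counts, or 295 and 290 CPM. Mir669l (ENSMUSG00000076959.1, 10468971 to 10469068) had 1310 and 898 counts, or 205 and 218 CPM. The 2 lie at opposite ends of the array, and Mir669o was higher in both libraries.

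Mir669c (ENSMUSG00000076118.1, 10509296 to 10509404) had 445 and 322 counts, or 69.8 and 78.1 CPM. Mir669e (ENSMUSG00000080653.1, 10467495 to 10467613) had 84 and 70 counts, or 13.2 and 17.0 CPM. Mir669h (ENSMUSG00000080594.1, 10518155 to 10518279), the last gene of the array, had 20 and 12 counts, or 3.14 and 2.91 CPM. The detected Mir669 genes thus spanned a wide range of levels, from Mir669o at 293 CPM ± 4.01 to Mir669h at 3.02 ± 0.160. Among the rest of the family, 13 members had 0 counts in both libraries, and Mir669f (2 and 5 counts) and Mir669a-3 (3 and 2 counts) were the only others with a count.

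The Mir466 family had 20 members, as many as Mir669, but held only 0.705% and 0.461% of the array's counts. Mir466n (ENSMUSG00000077991.1, 10513741 to 10513834) was its single detected gene, with 130 and 55 counts, or 20.4 and 13.3 CPM. Another 6 members, Mir466b-3 the highest of them with 6 and 2 counts, had a few counts, and 13 had 0 in both libraries. In the Mir297 family of 5, Mir297a-2 (ENSMUSG00000076983.2, 10472254 to 10472343) had 16 and 10 counts, or 2.51 and 2.42 CPM, which places it just inside the minimum. Of its relatives only Mir297c had any count, with 0 and 1.

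The 48 members with a Gm symbol had 3 counts in replicate 1 and 8 in replicate 2 in all. None of the 48 was detected, and 43 had 0 counts in both libraries. Gm22239 had the most, with 2 and 3 counts. By shared hairpin runs of 22 bases, 42 of the 48 were closest to a Mir669 gene, 2 to a Mir466 gene, 1 to a Mir467 gene, and 2 to none. The remaining member, Gm23578, shared 3 runs with Mir297, Mir466 and Mir669 genes alike. Some Mir669 assignments rest on few runs, such as the 3 of Gm26073.

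The 10 detected members kept a nearly fixed order of levels. For 8 of the 9 neighbouring pairs in that order, the lowest library value of the higher gene lay above the highest of the next. The exception was Mir466n and Mir669e, whose order differed between the libraries: Mir466n was 1.55-fold above Mir669e in replicate 1 and 0.786-fold of it in replicate 2. Mir669h and Mir297a-2 also rank apart by library values, but their counting intervals overlapped, at 1.92 to 4.84 CPM against 1.43 to 4.07 in replicate 1.

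Most hairpins of the array share stretches of sequence with other members, though not all to the same extent. Sharing was measured from GENCODE hairpin sequences against all annotated mouse microRNA genes with a sequence. Of the 107 members, 104 (97.2%) share an exact run of 22 bases, about the length of a mature microRNA, with another microRNA gene. Over all microRNA genes with a sequence the share was 46.0%. The copies lay within the same intron for 103 members and outside it for 24. A member shared a run with a median of 16 other genes. The 107 members hold 84 distinct hairpin sequences, and 38 members belong to 15 classes with an identical hairpin.

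The largest such class has 7 genes, Mir467a-2, Mir467a-4, Mir467a-5, Mir467a-7, Mir467a-8, Mir467a-9 and Gm25022, and had 0 counts in both libraries. No member with an identical partner had a count in either library. The 3 members without a copy were Gm22239 (2 and 3 counts), Mir466g (1 and 0 counts) and Gm23542 (0 and 0 counts), and none of them was detected.

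**Figure D2:**
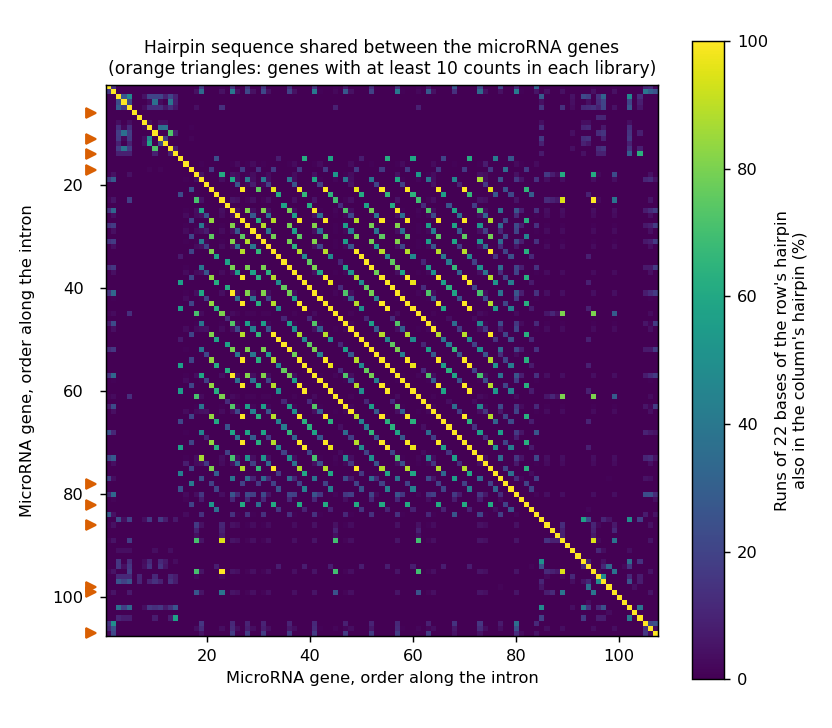
Each cell gives the share (%) of the 22-base runs of one member's hairpin (row) that also occur in another's (column), with the 107 genes in their order along the intron on both axes, and orange triangles mark the rows of the 10 detected genes. Parallel diagonals fill the middle of the array and show a repeated unit of several genes, and no row with a triangle reaches 100% away from the main diagonal.

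The repeated unit showed in the spacing of the Mir467-type genes. Mir467a-2 and the genes that share a run with it number 15, from Mir467c at one end, through the Mir467a genes, Mir467b and Gm25022, to Mir467e and Mir467d. Their starts were a median of 2449.5 bases apart. The last spacing, from Mir467e to Mir467d, was 1909 bases, and the 13 others lay between 2413 and 2470. The 3 detected genes of this set are the first and the last 2 of the row, and the 12 between them had 5 counts in replicate 1 and 7 in replicate 2, nearly all at Mir467b.

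The array was divided at the first and the last Mir467a gene, a division chosen after the counts had been seen and therefore not tested. The middle stretch, from Mir467a-1 to Mir467a-10 (10476346 to 10503355, 27.0 kb), holds 55 members. None of them was detected, 53 had 0 counts in both libraries, and the stretch held 0.0245% and 0.0529% of the array's counts. The stretch before it has 20 members over 10.3 kb, of which 4 were detected, with 29.8% and 31.9% of the counts. The stretch after it has 32 members over 14.7 kb, of which 6 were detected, with 70.2% and 68.1%.

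Hairpins differed in the same division. In the middle stretch, 40 of 55 hairpins contained no run of 22 bases that is unique among microRNA genes, and 37 of the 38 members with an identical partner lie there. Before it, 0 of 20 hairpins lacked a unique run, and after it 2 of 32. The median share of unique runs per hairpin was 0% in the middle, 49.2% before and 54.3% after. Of the 12 annotated genes without a row, 10 lie in the middle stretch. Whether the 0 counts of the middle come from the copies or from low levels was not tested, since the tables do not assign reads that match several loci to genes. Such reads numbered 3856768 in replicate 1 and 2684057 in replicate 2, 30.0% and 31.8% of all reads. They were 189 and 203 times the reads counted to the array, and which loci they came from is not in the tables.

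The share of unique runs and the level were set side by side across all 107 members. Of 42 members with no unique run, 0 were detected and 41 had 0 counts in both libraries. Of 36 members with unique runs making up less than 50% of the hairpin, 2 were detected, Mir467d (39.1% unique) and Mir297a-2 (36.2%). Of 22 members at 50% to under 90%, 7 were detected, and of 7 at 90% or more, 1 was detected, Mir669e (96.9%).

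The unique share alone did not order the levels. Mir467d, the member with the most counts, had the second-lowest unique share of the detected members, and Mir669e, with the highest, was at 15.1 CPM ± 2.69. Mir466g, Gm22239 and Gm23542, whose hairpins share no run of 22 bases with another microRNA gene, had at most 3 counts. Whether their runs occur elsewhere in the genome was not examined. Among the other 1787 microRNA genes with a sequence, 1 of 212 with no unique run was detected, 0 of 226 with a share under 50%, 9 of 215 at 50% to under 90% and 327 of 1134 at 90% or more (28.8%). At 50% to under 90% the counts were thus 7 of 22 in the array and 9 of 215 elsewhere. That difference was not tested, because members share sequence and a host transcript.

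**Figure D3:**
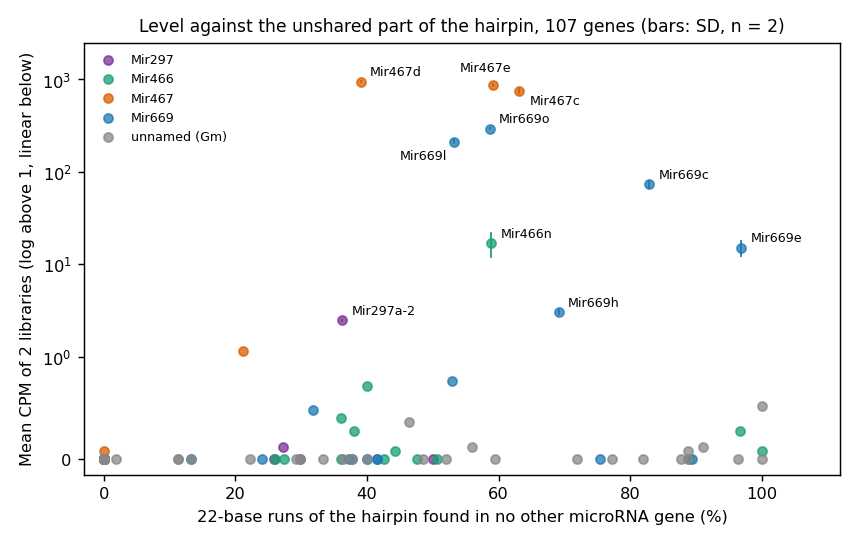
Mean CPM of the 2 libraries (vertical axis, logarithmic above 1 and linear below) against the share of 22-base runs of the hairpin that occur in no other microRNA gene (horizontal axis, %), 1 point per gene and coloured by family; bars on detected genes are the SD (n = 2). The 42 genes at 0% all lie below 1 CPM, and the 10 labelled genes run from 36.2% to 96.9% with no common order of share and level.

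GC content, base alternation and predicted folding were also taken from the hairpins. They had a median GC content of 38.3%, against 52.0% for the other 1787 genes. Steps that alternate between purine and pyrimidine made up a median of 82.6% of adjacent bases, against 43.5%. Detected members had medians of 39.7% GC and 85.6% alternating steps, and the 97 undetected ones 38.1% and 82.2%. The predicted folding energy per base (ViennaRNA) had a median of -0.37 kcal/mol over all members and -0.38 in the other 1787 genes. It was -0.40 in detected members and -0.36 in undetected ones, with ranges that overlapped (-0.57 to -0.26 and -0.54 to -0.21). These values describe the hairpins and were not tested.

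The reads of the array came almost entirely from the strand of Sfmbt2. Of 20438 counts in replicate 1, 0 lay on the opposite strand, and of 13245 in replicate 2, 1 did, at Mir467b. Over all microRNA genes, 97.4% and 97.3% of counts were on the sense strand. This was not particular to the array. For the microRNA genes within Clcn5 and the run from Mir379 to Mir410, the sense share was 100% in each library.

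Relatives elsewhere in the genome and other intronic or imprinted arrays were counted for comparison. The tables hold 10 genes named Mir297, Mir466, Mir467 or Mir669 outside Sfmbt2. They had 0 counts in replicate 1 and 1 count in replicate 2, at Mir466q on chromosome 3. A count of 0 in both libraries was thus found for 9 of the 10 (90%), against 64.1% of all microRNA genes. Of the 10, 9 share a run of 22 bases with another microRNA gene, and Mir669n, with 0 counts in both libraries, does not. Unique runs still made up a median of 77.0% of these hairpins, from 40% to 100%. Whether the low counts of the relatives relate to copies was not tested. In the intronic cluster of Clcn5, 5 of 5 genes were detected, and in the imprinted run from Mir379 to Mir410 on chromosome 12, 28 of 33 were. Hairpin copies were found for 0 of 5 and 1 of 33 of those genes, against 104 of 107 in the Sfmbt2 intron. The Clcn5 genes held 0.279% ± 0.00706 of gene counts with 5 genes, close to the 0.321% ± 0.000480 that the Sfmbt2 intron held with 107.

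Scaled by gene totals, the libraries gave nearly the same total for the array and differed at single members. The ratio of the array's total was not computed with other scalings. The share of gene counts in replicate 1 was 0.998 times that in replicate 2 (95% interval 0.976 to 1.02). By an exact binomial test of the counts of each gene against the library totals, adjusted over all 347 detected genes, 2 of the 10 detected members differed. Over all detected genes 47.0% differed, and 16.4% were higher in replicate 1. The test weighs counting error alone and compares these libraries, not conditions. Differences between the pools of embryos and between the library preparations cannot be told apart.

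Mir466n was 1.53-fold higher in replicate 1 (1.11 to 2.14, adjusted p = 0.0195, exact binomial test), and it was higher there with every scaling tried. Mir467c was 0.932-fold in replicate 1 relative to replicate 2 (0.891 to 0.975, adjusted p = 0.00610, exact binomial test). That call ended with edgeR's TMM factors (0.966-fold, adjusted p = 0.231) and with DESeq2's size factors (0.961-fold, adjusted p = 0.156), although the ratio stayed under 1. Mir467d and Mir467e did not pass with gene totals (1.03-fold each, adjusted p = 0.193 each, exact binomial test). With TMM factors they passed at 1.07-fold each (adjusted p = 0.00259 and 0.00314), and with size factors at 1.06- and 1.07-fold (adjusted p = 0.00600 and 0.00693). For the other 6 detected members the ratio lay between 0.776 for Mir669e and 1.08 for Mir669h, and each interval included 1.

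**Figure D4:**
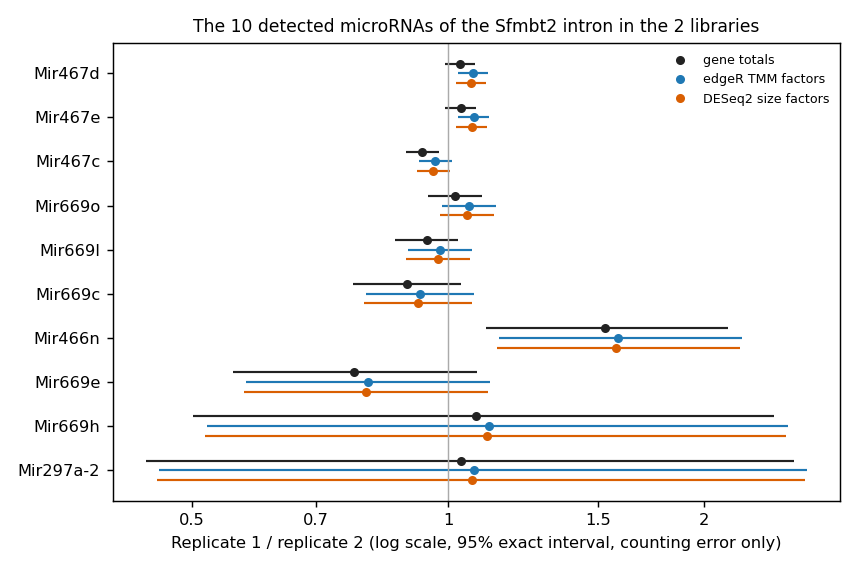
Ratio of replicate 1 to replicate 2 (horizontal axis, logarithmic) for the 10 detected members in order of mean level, with exact 95% intervals that cover counting error only, under scaling by gene totals, edgeR's TMM factors and DESeq2's size factors. The intervals of Mir466n lie above 1 under each scaling, those of Mir467c, Mir467d and Mir467e move across or away from 1 with the scaling, and those of the 6 others include 1 throughout.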

How the data were processed

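Small RNA of E16.5 lung was counted in 2 libraries. The authors deposited raw read counts per microRNA gene, with mm10 and GENCODE annotation M4 per the file headers; the aligner and counter were not given in the sources used. The strandless count column (column 2) was used over gene rows, and the summary lines stayed out of totals. CPM is the count times 1e+06 over the gene total. Symbols, coordinates (1-based) and hairpins come from GENCODE M21 on mm10 by identifier without version; 1894 of 1973 identifiers matched, and the other 79 could not be placed. No member had an entry in the RefSeq sequence table used, and the relatives' mature sequences printed come from that table. A gene has a copy where its hairpin shares 22 bases on the same strand with another microRNA gene. Unique runs were judged among microRNA genes only, not over the genome.

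Libraries were compared by a two-sided exact conditional binomial test with Benjamini-Hochberg adjustment over 347 genes with at least 10 counts in each library, at a threshold of 0.05. Since there is a single group, no condition was tested and no spread between replicates enters this test. Named genes are the detected members, the highest member of each family and of the unnamed members, the member nearest below the minimum and the members without a copy, with relatives outside Sfmbt2 and 2 other clusters as counts; further members are named where they hold few counts, chosen after their values were seen. The members and lists were chosen with earlier results of these data known. Only the library comparison and the search for shared runs were tested on simulated data, and the simulated counts varied by counting error alone. Tools were Python 3.11.15, scipy 1.17.1, pandas 2.3.3, ViennaRNA 2.7.2, R 4.3.3, edgeR 4.0.16 and DESeq2 1.42.0, the last 2 for scaling factors only.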

Additional observations from a re-analysis of the deposited data

Results flagged for a closer look

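Among the 79 table rows that could not be matched to the annotation, and so entered no statement on the array, the largest count was 4 in replicate 1. It lies just above the limit of 3 counts set for a gene with 0 counts. All 79 rows together held 5 counts in replicate 1 and 1 in replicate 2.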

How the results depend on the processing

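The number of detected members stayed at 10 with a minimum of 5 counts, on the sense strand, with either library alone and with members taken by family name, was 8 at a minimum of 20, and rose to 18 with 1 count in each library. Members at 0 numbered 81, and 85 in either library alone. The array's share was 0.351% of gene counts without the most abundant gene, 0.158% of all reads, 0.197% with reads of several loci in the denominator, 0.330% on the sense strand and 0.321% in either library alone. Members that differed between the libraries numbered 3 with edgeR's TMM factors and with DESeq2's size factors, and 2 with other minimums. These 3 were Mir466n, Mir467d and Mir467e, all higher in replicate 1, while the 2 with gene totals were Mir466n and Mir467c, 1 in each direction. Leaving out a library gives no value for that comparison. Members with a copy numbered 105, 104 and 101 for runs of 18, 20 and 25 bases, and 105 on either strand, an alternative chosen after seeing the data. The alternative that uses whole mature sequences was not run. Mean CPM of 14 named members moved to between 0.992 and 1.02 times under other scalings, and to between 0.920 and 1.03 times on the sense strand. No paired analysis was possible because the libraries form a single group. Below about 10 counts, depth does not allow an order of members.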
